A study of Mus musculus with 12 samples.

Results

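Long genes of mouse embryonic stem cells, the pluripotent cells of the early embryo kept in culture, are described here: 450 genes that span at least 200 kb of the genome from start to end and that held a mean of at least 1 TPM over 12 RNA-seq libraries. TPM is a transcript level scaled by transcript length and to a fixed total in each library. The genes were selected on 2 values: the span, from the start and end given in the tables (GRCm39), and the mean TPM, which was measured in the same libraries. Their levels are therefore a description and not a finding. They were 3.19% of the 14107 genes tested, which also had to reach a mean of 1 TPM, out of 41079 gene IDs. Of all 1068 genes of that span, 618 stayed under a mean of 1 TPM, 401 of them under 0.1, and 102 were listed at 0 in every library.

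The study compared 4 groups of 3 libraries: wild type untreated, wild type with etoposide, Bod1l knockout untreated and Bod1l knockout with etoposide, written below as WT and KO. Bod1l encodes a partner of the histone H3 lysine 4 methyltransferase SETD1A that is known to protect stalled replication forks. Tamoxifen is named in the titles of all 6 knockout libraries and in none of the wild-type ones, so in each comparison of genotypes the knockout and tamoxifen cannot be told apart. The sources used here give no dose or duration of etoposide, no mouse strain, no number of clones and no deleted part of Bod1l. The replicates are called biological, but separate cultures are not described, so p-values rest on the spread of these libraries alone, which may be technical.

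A gene of this size takes RNA polymerase II a long time to cross, and most of what it transcribes is intron that splicing removes. The moving polymerase winds the DNA ahead of it, and topoisomerases I and II release that strain. Etoposide holds topoisomerase II at the stage where the enzyme has cut both strands, which leaves breaks. Long genes code for many cell adhesion, cytoskeletal, signalling and synaptic proteins, and several of them lie in common fragile sites, stretches of chromosome that break under replication stress.

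The regions just upstream of 5 long genes are printed because the values of these genes are described in full below: Rad51b and Babam2, which encode DNA repair proteins and were lower in the knockout; Ano3, which was higher with etoposide; and Meis2 and Gli2, which encode transcription factors and were lower with it. Each is the 250 bases before the first start listed by RefSeq on GRCm38.p6, another build than that of the tables. They run 5′ to 3′ on the strand of the gene, with each CG dinucleotide in capitals. Cytosines at CG are the main ones that mammalian cells methylate.
Rad51b: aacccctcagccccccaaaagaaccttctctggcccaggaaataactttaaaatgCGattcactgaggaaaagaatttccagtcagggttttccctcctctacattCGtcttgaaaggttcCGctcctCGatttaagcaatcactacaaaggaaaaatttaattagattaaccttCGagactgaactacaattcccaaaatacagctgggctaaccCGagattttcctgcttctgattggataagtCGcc
Babam2: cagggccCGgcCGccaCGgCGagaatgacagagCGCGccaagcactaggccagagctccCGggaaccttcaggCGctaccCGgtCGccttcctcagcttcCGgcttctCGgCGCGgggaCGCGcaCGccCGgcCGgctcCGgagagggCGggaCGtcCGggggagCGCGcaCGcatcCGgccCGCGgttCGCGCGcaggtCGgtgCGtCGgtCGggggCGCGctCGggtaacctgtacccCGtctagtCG
Ano3: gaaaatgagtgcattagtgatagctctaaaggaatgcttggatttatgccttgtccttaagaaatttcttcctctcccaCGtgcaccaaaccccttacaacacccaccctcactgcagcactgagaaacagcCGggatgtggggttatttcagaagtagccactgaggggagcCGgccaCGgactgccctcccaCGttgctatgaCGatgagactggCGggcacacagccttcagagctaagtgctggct
Meis2: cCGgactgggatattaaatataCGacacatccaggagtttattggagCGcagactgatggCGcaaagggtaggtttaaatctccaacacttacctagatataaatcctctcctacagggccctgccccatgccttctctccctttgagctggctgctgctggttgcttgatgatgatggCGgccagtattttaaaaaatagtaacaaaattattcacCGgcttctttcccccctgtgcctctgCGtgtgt
Gli2: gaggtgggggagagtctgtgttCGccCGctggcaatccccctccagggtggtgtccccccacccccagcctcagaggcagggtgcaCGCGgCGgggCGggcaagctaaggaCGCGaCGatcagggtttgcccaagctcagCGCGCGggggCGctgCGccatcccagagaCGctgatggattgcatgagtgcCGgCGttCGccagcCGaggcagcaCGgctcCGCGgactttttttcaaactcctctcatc
On GRCm38.p6 they lie at chr12:79297032-79297281 (plus strand), chr5:31697800-31698049 (plus strand), chr2:110950245-110950494 (minus strand), chr2:116064620-116064869 (minus strand) and chr1:119053620-119053869 (minus strand). CG, which reads the same on both strands, occurred 41 times before Babam2 and 22 times before Gli2, against 7 times before Rad51b, Ano3 and Meis2. Over the 13268 starts of the 10435 tested genes found in the table the median was 15, and 68.9% held at least 10; over all 32851 starts it was 6, and 37.8% did. The letters TATAAA, searched on both strands, were found before Meis2 among these 5, before 6.31% of the starts of tested genes and before 12.4% of all starts. Rad51b and Ano3 each have a further start in the table, and which start is used in these cells was not tested. RefSeq starts were found by symbol for 336 of the 450 long genes (74.7%), under the 80% needed, so a comparison of upstream sequence between the long genes and the others is void and is not given. The 10435 found of the 14107 genes tested were also under 80%, so their values above describe only the genes found.

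Depth lay between 5.23 and 7.76 aligned gigabases per library. Bod1l was at 46.5 to 51.1 TPM in the 6 wild-type libraries and at 11.2 to 12.95 in the 6 knockout libraries. All 10 stem cell markers reached 1 TPM in each group. Their summed level was 8579 to 8608 TPM in untreated WT, 8053 to 8354 in treated WT, 7791 to 7914 in untreated KO and 7386 to 7735 in treated KO, so the groups did not overlap. The largest part was Dppa5a, with means of 3806, 3932, 3259 and 3335 TPM in that order. In both conditions the means of Dppa5a, Pou5f1, Utf1 and Lin28a were lower in KO than in WT. Those of Sox2, Klf4, Esrrb and Zfp42 were higher, and Nanog and Tfcp2l1 were lower untreated and higher treated. The 8 feeder fibroblast markers summed to 9.79 to 11.9 TPM. Extraembryonic endoderm markers summed to 3.02 to 3.4 TPM in untreated WT, 3.52 to 5.05 in treated WT, 5.50 to 6.44 in untreated KO and 4.88 to 6.39 in treated KO. The sums of trophectoderm markers stood lower in all knockout libraries than in all wild-type ones, at 90.3 to 95.3, 86.3 to 88.8, 78.8 to 82.9 and 70.8 to 76.3 TPM in the same order. That fall came from Tfap2c (mean 47.7 TPM in untreated WT and 32.4 in untreated KO) and Eomes (11.0 and 8.47). The means of Cdx2, Gata3, Krt8 and Krt18 were instead higher in KO than in WT in both conditions. Markers of the 2-cell-like state, a rare early-embryo-like state in such cultures, summed to 2.43 to 3.44 TPM in wild type and to 25.0 to 29.6 TPM in the knockout over the 6 of 8 names found. Neuron markers, which matter since many long genes are active in neurons, summed to 369 to 380.0 TPM in untreated WT, 322 to 343 in treated WT, 314 to 333 in untreated KO and 289.9 to 302 in treated KO. Most of that sum was Tubb3 and Stmn2, while the neuronal transcription factor gene Neurod1 had mean levels of 2.78, 11.9, 4.82 and 11.7 TPM in that order. The part of these cell states in the results below was not tested. Changes are differences of mean log2(TPM + 1) ± SE (n = 3 libraries per group), which shrinks the changes of genes at low levels, so the ratio of mean TPM is given beside some of them. A gene was called higher or lower at an adjusted p under 0.05, from limma fitted across all genes tested with Benjamini-Hochberg adjustment. In bulk RNA, fewer cells that express a gene and less RNA per cell cannot be told apart.

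The median span of the long genes was 287 kb, against 19.5 kb for all genes tested, and 12 reached 1000 kb. Their median level was 10.3 TPM, lower than the 20.8 TPM of all genes tested, and together they held 0.783% of the summed TPM. The range of levels ran from 1.00 to 136 TPM. The 5 highest, in order, were Cobl (136 TPM), Dst (135 TPM), Rnf220 (131 TPM), Macf1 (129 TPM) and Snd1 (125 TPM). In the mouse gene models of GENCODE M21, matched by symbol for 441 of the 450, the longest transcript had a median of 6212 bases in 18 exons, 1.90% of the genomic span, against 3142 bases, 7 exons and 14.9% over all genes tested. On the X chromosome lay 16 of them (3.56%), close to the 3.45% of all genes tested. Just inside the length threshold were Pcbp3 (200.3 kb), Ppp1r12b (201.3 kb) and Antxr1 (201.9 kb), and just outside it Clec16a (199.6 kb), Morc1 (199.7 kb) and Atp9b (199.9 kb). Just inside the threshold of 1 TPM were Nxpe4 (1.00), Col22a1 (1.00) and Ssbp2 (1.00), and just outside it Grid1 (0.964), Ank2 (0.967) and Fbn1 (0.988).

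More long genes were higher than lower with etoposide, in both genotypes. In wild type 132 of the 450 were called higher (29.3%), where 20.8% of all genes tested were, and 32 were called lower (7.11%), where 13.5% of all genes tested were. In the knockout 88 were called higher (19.6%), against 14.5% of all genes tested, and 29 lower (6.44%), against 10.5%. The median change of the long genes was 0.10 in WT and 0.06 in KO on the log2 scale, beside medians of 0.02 and 0.00 over all genes tested. The direction of the members' median depends on the scaling: under quantile normalization it was −0.02 in WT and −0.01 in KO, beside −0.04 and −0.03 over all genes tested, and the counts became 81 higher and 70 lower in WT and 69 higher and 51 lower in KO. The counts in the knockout fell when any 1 of its libraries was left out. Lower calls were 19, 23 and 21 without untreated KO replicates 1, 2 and 3 and 17, 22 and 24 without the treated ones. Higher calls lay between 67 and 76 in these fits.

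Treated and untreated libraries of each genotype separated in the median of the long genes, while the genotypes overlapped in both conditions. Relative to each gene's mean over the 12 libraries, that median stood at −0.08, −0.07 and −0.04 in untreated WT, at 0.02, 0.06 and 0.06 in treated WT, at 0.01, −0.04 and −0.02 in untreated KO and at 0.02, 0.05 and 0.05 in treated KO. Treated libraries lay above untreated ones of the same genotype without overlap, and the 2 lowest libraries of all were untreated WT. Over all genes tested, treated libraries also lay above untreated ones of the same genotype, and untreated WT lay below untreated KO. That median was −0.024, −0.017 and −0.013 in untreated WT and −0.00084, 0.021 and 0.010 in treated WT. In KO it was 0.0065, 0.0015 and 0.0019 untreated and 0.0082, 0.018 and 0.0074 treated. The long genes' median minus it was −0.058 to −0.026, 0.022 to 0.047, −0.045 to 0.0027 and 0.015 to 0.043 in that order. The summed level of the 450 genes was 7392, 7469 and 7622 TPM in untreated WT, 7840, 8099 and 8082 in treated WT, 7862, 7663 and 7834 in untreated KO and 7956, 8100.4 and 8047 in treated KO.

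**Figure D1:**
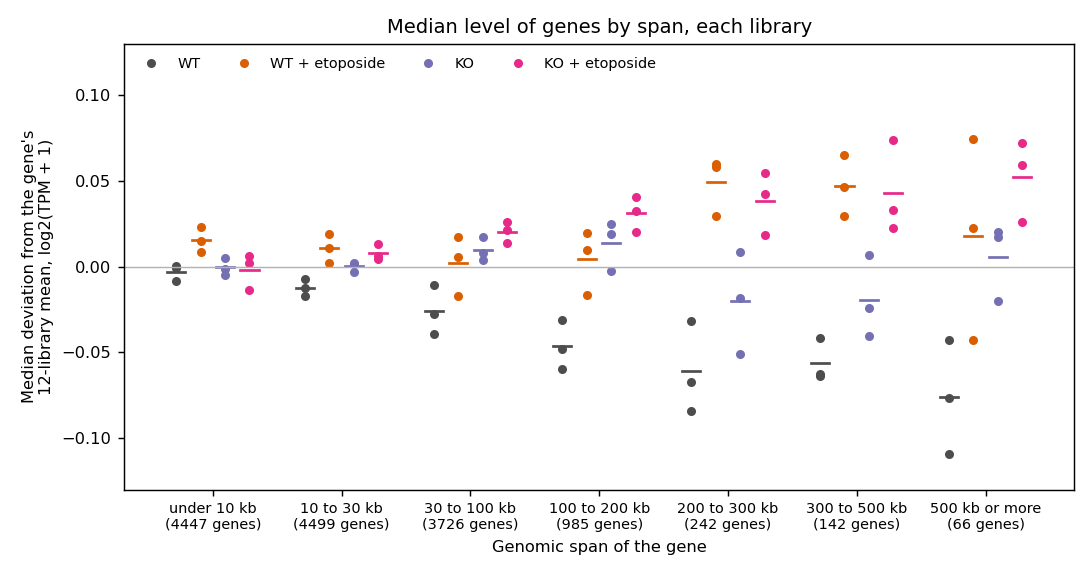
Median deviation of genes from their own mean over 12 libraries (vertical axis, log2(TPM + 1)) by genomic span (horizontal axis, with the number of genes); each point is a library and each short line the mean of 3. Untreated WT falls below 0 as span grows, and for spans of 200 to 500 kb treated libraries lie above untreated ones of their genotype.

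Within the long genes the median rise with etoposide in WT was no larger in the longer classes. The median change in WT was 0.02 for genes under 10 kb, 0.02 for 10 to 30 kb, 0.02 for 30 to 100 kb and 0.04 for 100 to 200 kb, and then 0.10 for the 242 genes of 200 to 300 kb, 0.10 for the 142 of 300 to 500 kb and 0.09 for the 66 of 500 kb or more. In KO it was −0.0021, 0.00079, 0.0028 and 0.0041 in the 4 shorter classes and 0.05, 0.05 and 0.06 in the 3 long ones. The share called higher in WT went from 15.5% under 10 kb to 26.6% at 100 to 200 kb and 31.4% at 200 to 300 kb, and was 24.2% at 500 kb or more. The share called lower was 11.8% at 100 to 200 kb and 8.68%, 4.93% and 6.06% in the 3 long classes. Across the 450 genes, the Spearman correlation of span with the etoposide change was −0.02 in WT and −0.0018 in KO, as a description over genes that share the same libraries.

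**Figure D2:**
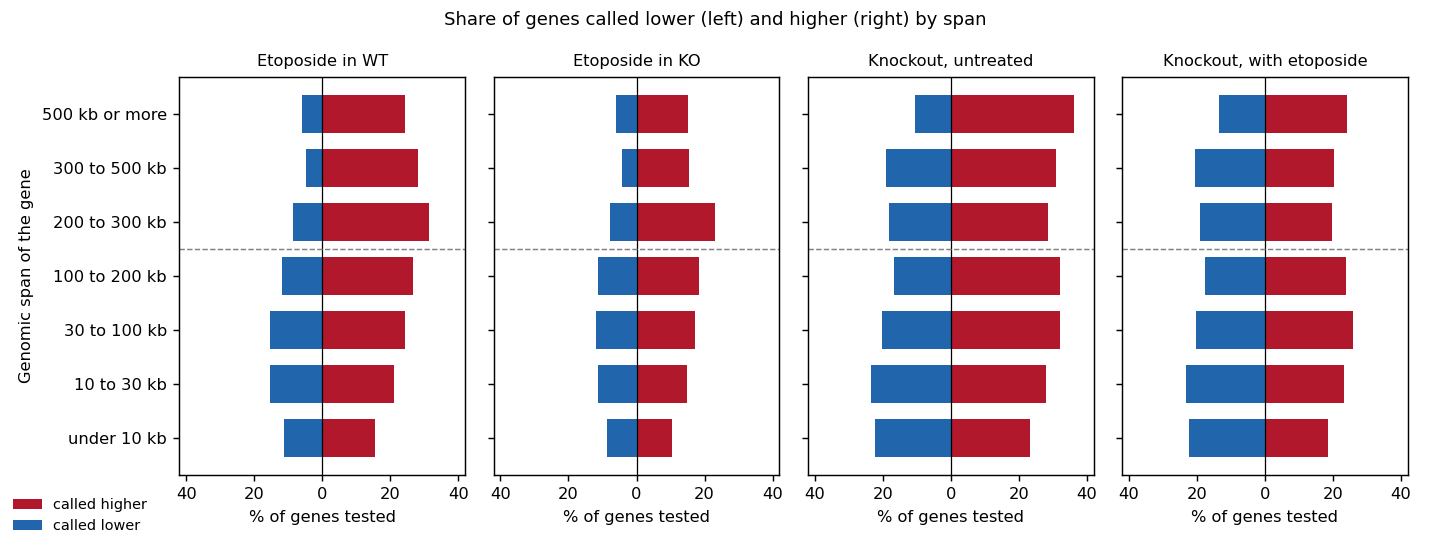
Share of genes tested (horizontal axis, %) called lower (blue, left) or higher (red, right) in each span class (vertical axis), 1 panel for each of 4 comparisons; the dashed line marks 200 kb. With etoposide the blue bars are shorter above the line than below it. In the untreated knockout the red bars stand at 32.2% for 100 to 200 kb and 28.5% for 200 to 300 kb. Of the 208 genes of 300 kb or more, 68 were called higher there.

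Level moved with the etoposide change as well, and the part of level in the result was not tested. Over all genes tested the Spearman correlation of mean TPM with the change in WT was −0.25, and over the long genes −0.16. Among genes of 1 to 5 TPM the median change in WT was 0.12 for 142 long genes and 0.11 for 3234 shorter ones, with 26.1% and 19.7% called higher. Among genes of 5 to 50 TPM it was 0.09 for 279 long genes and 0.04 for 6407 shorter ones, with 30.5% and 23.8% called higher. The 29 long genes at 50 TPM or more had a median of −0.0041, against −0.04 for 4016 shorter genes. Of the 450, 28 had a group mean under 1 TPM in some group and could pass the filter through the groups where they are high. The other 422 counted 119 higher and 32 lower in WT and 77 and 29 in KO.

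The 2 etoposide comparisons share no library. Of the 132 long genes higher in WT, 78 (59.1%) were also higher in KO, which is 88.6% of the 88 higher there, and 17 were lower in both, 53.1% of 32 and 58.6% of 29. Over all genes tested these shares were 61.6% and 88.7% for higher calls and 57.8% and 74.1% for lower ones. None of the long genes was called in opposite directions. Pearson's r of the changes was 0.81 over the 450 genes, beside 0.78 over all genes tested.

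**Figure D3:**
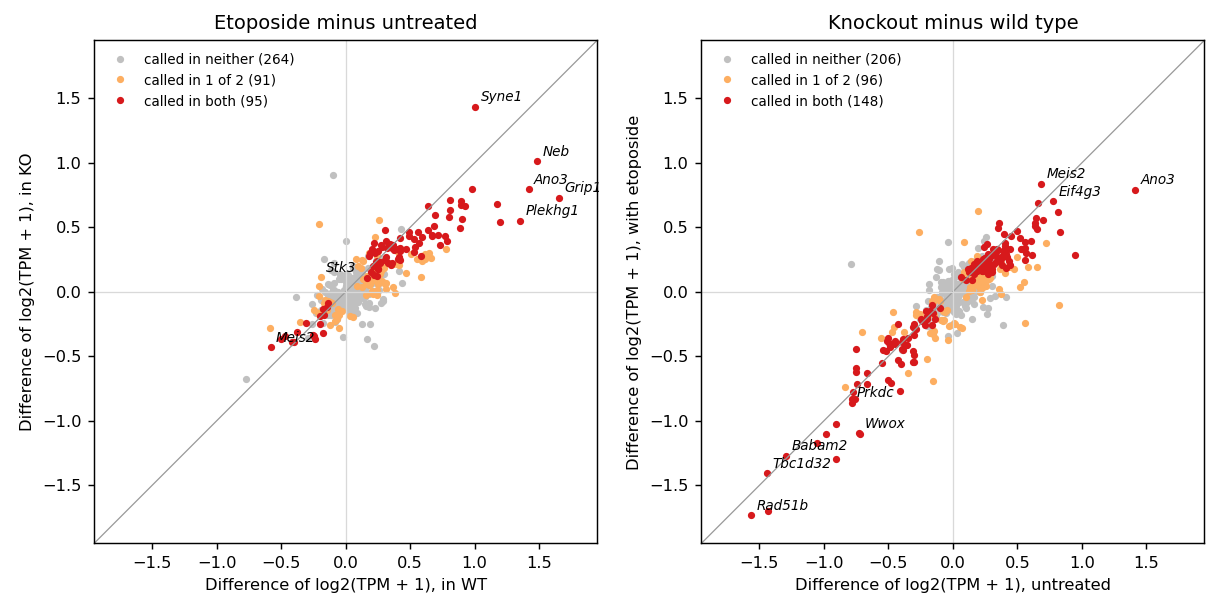
Changes of the 450 long genes in log2(TPM + 1), 1 point per gene. Left, etoposide minus untreated in WT (horizontal) and KO (vertical); right, KO minus WT without (horizontal) and with etoposide (vertical); colours give the number of the 2 comparisons in which a gene was called, and the line marks equal change. In the left panel 78 genes were called higher and 17 lower in both comparisons, in the right panel 85 and 63, and none in opposite directions.

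Several of the genes that rose most with etoposide were low in untreated wild type. Grip1, Neb, Dscaml1, Efna5, Tbc1d5 and Tbc1d32, all named below, are among the 28 with a group mean under 1 TPM in some group. Of these, Tbc1d5 and Tbc1d32 are named for falls in the knockout, and Tbc1d32 was above 1 TPM in untreated WT. Grip1 (chr10:119289810-119923172, 633 kb), a scaffold that anchors glutamate receptors at synapses, was at 1.04, 0.529 and 0.625 TPM in untreated WT and at 4.39, 4.51 and 4.33 in treated WT. All treated WT libraries lay above the untreated ones, a change of 1.66 ± 0.23 (adjusted p = 0.000136) and 6.05 times the mean TPM of untreated WT. In KO it went from 2.98, 1.43 and 1.91 to 4.73, 2.40 and 5.57 TPM, where the groups overlapped; the change of 0.73 ± 0.23 (adjusted p = 0.0367) lost its call without untreated KO replicate 2 or 3 or treated KO replicate 1 or 3, and under quantile normalization. Neb (chr2:52026652-52228810, 202 kb) encodes nebulin, a giant protein of muscle thin filaments. It stood at 0.462, 0.538 and 0.609 TPM in untreated WT and 2.94, 3.50 and 3.47 in treated WT, at 1.39, 1.19 and 1.18 in untreated KO and at 3.49, 3.75 and 3.37 in treated KO. Treated and untreated libraries did not overlap in either genotype, with changes of 1.48 ± 0.10 (adjusted p = 1.78e-07) and 1.01 ± 0.10 (adjusted p = 1.1e-05). Syne1 (chr10:4970192-5501013, 531 kb), which encodes nesprin-1, a link between the nuclear envelope and the cytoskeleton, had the largest rise in KO. It was at 1.29, 1.36 and 1.40 TPM in untreated KO and 6.10, 4.88 and 5.14 in treated KO, 1.43 ± 0.15 (adjusted p = 2.34e-05) and 3.98 times the mean of untreated KO. In WT it was at 1.16, 0.933 and 1.07 TPM untreated and 3.66, 2.11 and 3.81 treated, without overlap, 1.00 ± 0.15 (adjusted p = 0.000244).

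Higher levels were reached by genes of signalling and membrane traffic. Plekhg1 (chr10:3690206-3917303, 227 kb) encodes an exchange factor for small GTPases. It was at 22.5, 25.5 and 22.5 TPM in untreated WT and at 47.5, 69.8 and 69.9 in treated WT, 1.35 ± 0.17 (adjusted p = 6.34e-05); in KO it was at 30.8, 29.1 and 47.6 untreated and 49.0, 52.9 and 53.4 treated, where untreated replicate 3 stood apart from the other 2. The change in KO, 0.55 ± 0.17 (adjusted p = 0.0341), lost its call without untreated KO replicate 1 or 2 or without any 1 of the treated KO libraries. Unc13b (chr4:43046193-43264873, 219 kb), a priming factor of secretory vesicles, had the lowest adjusted p of the named members in WT. Its libraries were at 21.9, 22.5 and 23.0 TPM untreated and 36.4, 36.6 and 35.8 treated in WT, and 30.2, 29.6 and 30.9 untreated and 40.7, 42.1 and 41.6 treated in KO, with changes of 0.67 ± 0.03 (adjusted p = 2.56e-08) and 0.44 ± 0.03 (adjusted p = 2.23e-06). Neither pair of groups overlapped. Exoc4 (chr6:33226025-33950914, 725 kb), a subunit of the exocyst that tethers vesicles to the plasma membrane, rose from 68.6, 72.8 and 72.4 to 89.7, 91.2 and 92.8 TPM in WT, 0.35 ± 0.03 (adjusted p = 4.27e-06), and from 77.7, 74.6 and 77.4 to 91.5, 87.2 and 87.6 in KO, 0.21 ± 0.03 (adjusted p = 0.000499). Pvt1 (chr15:61909835-62132064, 222 kb) is a long noncoding RNA next to Myc and a known target of p53. It was at 11.9, 12.4 and 11.9 TPM in untreated WT, 21.9, 25.1 and 24.7 in treated WT, 19.4, 19.2 and 16.5 in untreated KO and 29.1, 29.8 and 30.1 in treated KO, with changes of 0.93 ± 0.07 and 0.67 ± 0.07. Other members that rose in both genotypes were the cell adhesion gene Dscaml1 (1.17 ± 0.10 in WT and 0.68 ± 0.10 in KO), the zinc finger gene Zbtb7c (0.98 ± 0.11 and 0.80 ± 0.11), the GTPase regulator Srgap2 (0.56 ± 0.05 and 0.47 ± 0.05) and Tanc1 (0.47 ± 0.04 and 0.33 ± 0.04), whose product is a scaffold of the postsynaptic density.

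Of the 32 long genes that fell with etoposide in WT, 12 were in the list of transcription and chromatin genes, which has 55 members. That is 21.8% of the list, beside 13.5% of all genes tested, and 13 of the 55 were higher. Meis2 (chr2:115691745-115897925, 206 kb), a homeodomain partner of Hox proteins, was at 4.61, 6.27 and 4.12 TPM in untreated WT and 3.55, 2.42 and 3.01 in treated WT, −0.58 ± 0.13 (adjusted p = 0.00509). In KO it was at 9.46, 7.59 and 8.64 untreated and 6.15, 6.03 and 6.09 treated, −0.43 ± 0.13 (adjusted p = 0.0355). Groups did not overlap in either genotype, but the call in KO was lost without untreated KO replicate 1 or 3 or without any 1 of the treated KO libraries. Gli2 (chr1:118761791-118987578, 226 kb), an effector of Hedgehog signalling, was at 38.7, 41.1 and 44.6 TPM untreated and 26.7, 34.0 and 28.6 treated in WT, −0.47 ± 0.09 (adjusted p = 0.00178). Its change in KO, −0.34 ± 0.09 (adjusted p = 0.0174), lost its call without untreated KO replicate 1 or treated KO replicate 1 or 2. Nfib (chr4:82208410-82424988, 217 kb), a nuclear factor I gene, fell from 16.2, 16.9 and 16.8 to 10.9, 13.4 and 12.9 TPM in WT and from 19.5, 20.1 and 20.3 to 14.9, 15.4 and 14.7 in KO, −0.40 ± 0.07 and −0.39 ± 0.07. Sfmbt2 (chr2:10375251-10600064, 225 kb), a Polycomb protein gene, changed by −0.50 ± 0.06 in WT and by −0.37 ± 0.06 in KO. Outside transcription, Slit2, a guidance cue for axons, changed by −0.42 ± 0.08 in WT and −0.39 ± 0.08 in KO, Ncam1, a cell adhesion molecule, by −0.37 ± 0.05 and −0.31 ± 0.05, and Dlc1, a GTPase inactivator, by −0.31 ± 0.03 and −0.24 ± 0.03, all called lower.

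In the untreated knockout more long genes were higher than lower, with shares close to those of all genes tested. Untreated, 137 of the 450 were called higher (30.4%), where 28.1% of all genes tested were, and 78 lower (17.3%), where 21.5% were. With etoposide 93 were higher (20.7%) and 84 lower (18.7%), against 22.5% and 21.7% of all genes tested. That balance turned to 76 and 85 with FPKM, to 71 and 82 without treated WT replicate 1 and to 74 and 76 without treated KO replicate 3. The 422 with a group mean of at least 1 TPM in every group counted 129 higher and 72 lower untreated and 89 and 80 treated. The median change was 0.08 untreated and 0.03 with etoposide, beside 0.04 and 0.02 over all genes tested; with FPKM it was 0.035 and 0.011, and the treated median was 0.013 without treated WT replicate 1. In span classes the untreated median of the long genes was 0.07, 0.09 and 0.10 from 200 kb upwards. The 2 comparisons share no library: 85 long genes were higher in both, 62.0% of 137 and 91.4% of 93, and 63 were lower in both, 80.8% of 78 and 75.0% of 84, with none opposite. Over all genes tested these shares were 64.5% and 80.7% for higher calls and 81.2% and 80.7% for lower ones. Pearson's r of the changes was 0.87 over the long genes, beside 0.85 over all genes tested.

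**Figure D4:**
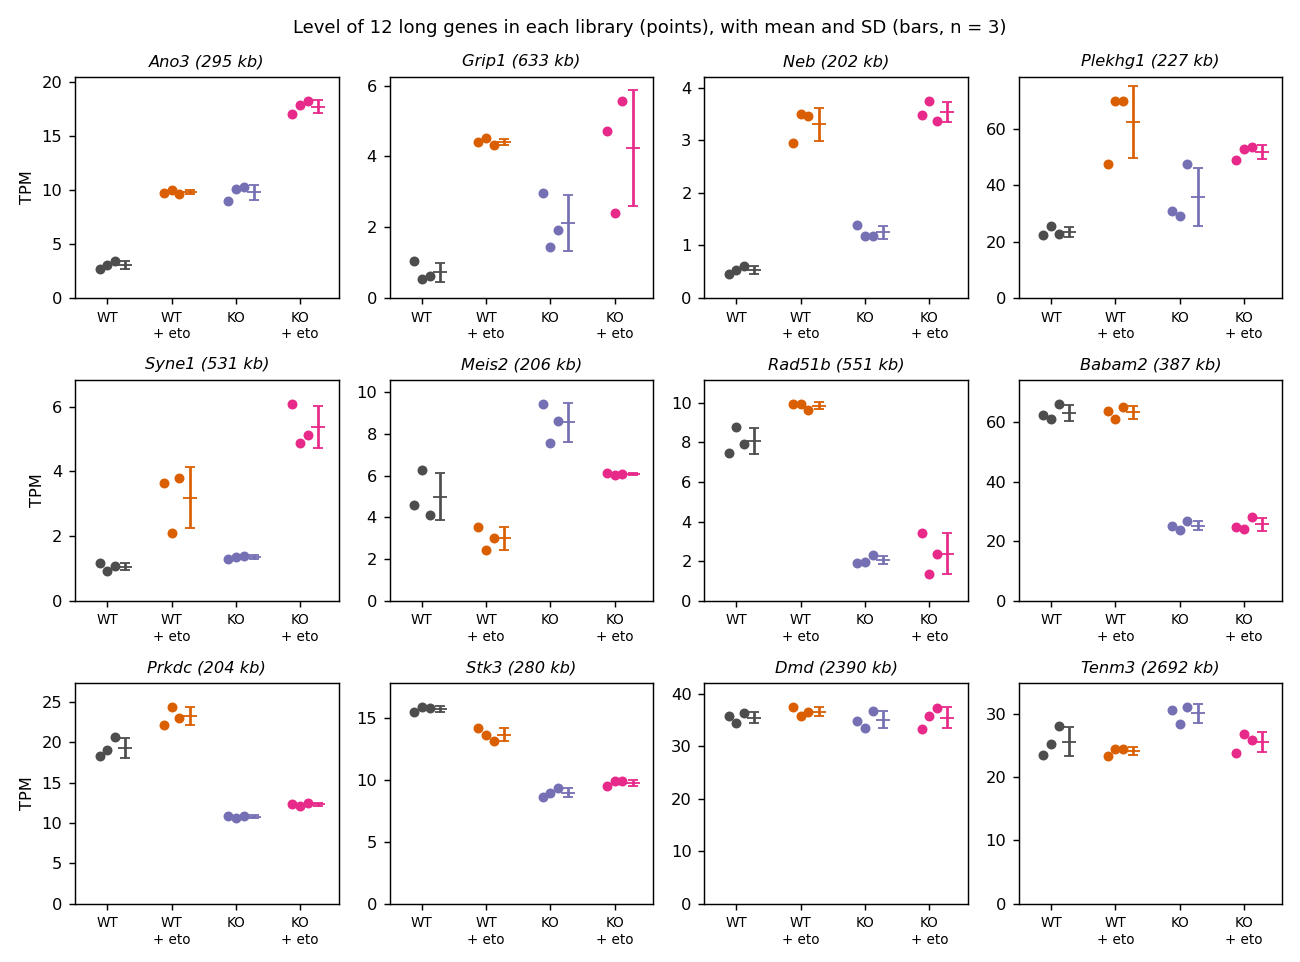
TPM (vertical axis, from 0) of 12 long genes in every library, by group (horizontal axis; eto, etoposide); points are libraries and bars the mean ± SD of 3. Ano3, Grip1, Neb, Plekhg1 and Syne1 stand higher in treated WT than in untreated WT, Rad51b, Babam2, Prkdc and Stk3 are lower in all knockout libraries than in all wild-type ones, and Dmd is near 35 TPM throughout.

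Several large falls in the knockout were in genes of DNA repair. Rad51b (chr12:79344032-79895034, 551 kb), which acts in homologous recombination, was at 7.47, 8.79 and 7.94 TPM in untreated WT and 1.92, 1.95 and 2.32 in untreated KO. With etoposide it was at 9.95, 9.96 and 9.65 in WT and 3.42, 1.36 and 2.35 in KO. All knockout libraries lay below all wild-type ones, with changes of −1.57 ± 0.17 (adjusted p = 1.32e-05) and −1.73 ± 0.17 (adjusted p = 7.2e-06), the lowest of the named members in both. Babam2 (chr5:31855394-32242083, 387 kb), a subunit of the BRCA1-A complex that acts at breaks, was at 62.3, 60.9 and 66.1 TPM in untreated WT and 25.1, 23.8 and 26.7 in untreated KO. With etoposide it was at 63.5, 61.0 and 65.0 in WT and 24.8, 24.1 and 28.1 in KO, and the genotypes did not overlap. The knockout held 39.9% of the wild-type mean untreated and 40.6% treated, −1.29 ± 0.06 (adjusted p = 1.24e-08) and −1.27 ± 0.06 (adjusted p = 1.75e-08). Prkdc (chr16:15455698-15660103, 204 kb) encodes the catalytic subunit of DNA-PK, the kinase of non-homologous end joining. It was at 18.3, 19.0 and 20.6 TPM in untreated WT, 22.2, 24.4 and 23.0 in treated WT, 10.9, 10.6 and 10.9 in untreated KO and 12.3, 12.1 and 12.5 in treated KO, a change with the knockout of −0.78 ± 0.05 untreated and −0.86 ± 0.05 treated. All its knockout libraries lay below all wild-type ones.

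Of the 7 long genes in the DNA repair list, 4 were lower in the knockout without etoposide and 5 with it, beside 21.5% and 21.7% of all genes tested, and none was higher. The direction of this list was known from earlier results on these libraries, so it is not independent evidence. Xrcc4, which works with DNA ligase IV, was at 8.28, 8.48 and 9.68 TPM in untreated WT and 5.74, 5.31 and 6.17 in untreated KO, −0.54 ± 0.09 (adjusted p = 0.000416). Mgmt, which removes alkyl groups from guanine, was at 4.85, 5.83 and 7.61 TPM in untreated WT and 4.81, 4.65 and 4.11 in untreated KO, not overlapping but short of the threshold (−0.35 ± 0.14, adjusted p = 0.0509). With etoposide it was at 10.5, 11.3 and 9.83 in WT and 5.62, 7.73 and 6.22 in KO, −0.63 ± 0.14 (adjusted p = 0.00277). Spidr, a scaffold of recombination proteins, and Mcph1, a regulator of chromosome condensation and the damage response, differed between genotypes by −0.03 ± 0.05 and 0.10 ± 0.07 untreated, neither called. With etoposide 3 of the 7 rose in each genotype, beside 20.8% of all genes tested in WT and 14.5% in KO: Mgmt (0.72 ± 0.14 in WT and 0.44 ± 0.14 in KO), Prkdc (0.25 ± 0.05 and 0.18 ± 0.05) and Spidr (0.18 ± 0.05 and 0.28 ± 0.05). Babam2, Rad51b, Xrcc4 and Mcph1 were not called with etoposide in either genotype. The calls in KO of Mgmt and Prkdc were each lost without any 1 of the untreated KO libraries and without treated KO replicate 2 or 3, that of Prkdc also without treated KO replicate 1, and the call of Spidr in WT without untreated WT replicate 3 or treated WT replicate 3. All of these 3 calls were also lost under quantile normalization.

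Other large falls in the knockout were in genes outside DNA repair, several of them in the lists of membrane traffic and metabolism. Most called genes of the membrane traffic list were higher, however. Of its 45 genes, 15 were higher (33.3%) and 5 lower (11.1%) untreated, beside 28.1% and 21.5% of all genes tested. With etoposide 8 were higher (17.8%) and 6 lower (13.3%), beside 22.5% and 21.7%. Tbc1d32 (chr10:55890389-56106495, 216 kb), needed for cilium assembly and Hedgehog signalling, was at 3.87, 4.36 and 4.60 TPM in untreated WT and 0.93, 1.02 and 0.869 in untreated KO, −1.44 ± 0.09 (adjusted p = 1.1e-07) and 22.0% of the wild-type mean. Cfap20dc (chr14:13803434-14038602, 235 kb) was at 9.36, 8.37 and 8.96 TPM in untreated WT, 10.9, 10.8 and 10.5 in treated WT, 2.95, 2.47 and 2.57 in untreated KO and 3.14, 2.23 and 2.53 in treated KO, with knockout changes of −1.43 ± 0.09 and −1.70 ± 0.09. Tbc1d5, a Rab regulator that binds retromer, changed by −0.91 ± 0.10 untreated and −1.30 ± 0.10 treated, and Trappc9, a vesicle tethering subunit that overlaps Peg13 on the same strand, by −0.91 ± 0.07 and −1.02 ± 0.07. The zinc transporter gene Slc39a11 changed by −0.76 ± 0.08 and −0.83 ± 0.08, the X-linked oxidase gene Enox2 by −0.98 ± 0.11 and −1.10 ± 0.11, and Sil1, a chaperone cofactor of the endoplasmic reticulum, by −0.75 ± 0.08 and −0.59 ± 0.08. Of the 33 long genes of metabolism, glycans and transport, 13 were lower and 8 higher untreated, and 13 lower and 3 higher with etoposide. Lower calls were 39.4% of the list in each, beside 21.5% and 21.7% of all genes tested, and higher calls 24.2% and 9.09%, beside 28.1% and 22.5%. The lower ones included the mitochondrial genes Vwa8 (−1.06 ± 0.12 untreated and −1.17 ± 0.12 treated), Suclg2, a subunit of succinyl-CoA ligase (−0.77 ± 0.05 and −0.78 ± 0.05), and Pcca, a subunit of propionyl-CoA carboxylase (−0.48 ± 0.07 and −0.71 ± 0.07).

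Among the long genes that were higher in the untreated knockout, Ano3 had the largest change. Ano3 (chr2:110485546-110780854, 295 kb), a TMEM16 family membrane protein, was at 2.68, 3.02 and 3.45 TPM in untreated WT, 9.70, 10.0 and 9.66 in treated WT, 8.96, 10.0 and 10.3 in untreated KO and 17.0, 17.8 and 18.2 in treated KO. Untreated KO and treated WT overlapped, and treated KO lay above both. The change with the knockout was 1.41 ± 0.08 untreated (adjusted p = 3.92e-08) and 0.79 ± 0.08 treated (adjusted p = 5.97e-06), and that with etoposide 1.42 ± 0.08 in WT (adjusted p = 3.32e-08) and 0.80 ± 0.08 in KO (adjusted p = 1.09e-05). Eif4g3 (chr4:137719090-137934397, 215 kb), a translation initiation scaffold, was at 5.74, 5.74 and 6.34 TPM in untreated WT and 10.8, 10.8 and 11.1 in untreated KO, 0.78 ± 0.06 (adjusted p = 1.09e-06). Mycbp2 (chr14:103350847-103584276, 233 kb), a giant ubiquitin ligase, was at 8.85, 8.32 and 9.48 TPM in untreated WT and 14.5, 14.0 and 14.6 in untreated KO, 0.64 ± 0.05 (adjusted p = 1.52e-06). With etoposide present the knockout change of these genes was 0.70 ± 0.06 and 0.51 ± 0.05, and the groups did not overlap in either condition. Efna5, an ephrin ligand, rose by 0.66 ± 0.12 and 0.69 ± 0.12, from 0.636, 1.00 and 0.764 to 2.05, 1.85 and 1.64 TPM untreated. Pam, an enzyme that amidates peptide hormones, was higher by 0.83 ± 0.09 and 0.46 ± 0.09, Tanc2, a synaptic scaffold, by 0.70 ± 0.11 and 0.56 ± 0.11, and the transcription factor genes Klf12 and Camta1 by 0.65 ± 0.12 and 0.35 ± 0.05 untreated. Meis2, which fell with etoposide in WT, was higher in the knockout by 0.68 ± 0.13 untreated (adjusted p = 0.0012) and 0.84 ± 0.13 treated (adjusted p = 0.000345).

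The 5 most abundant long genes had no change above 0.41 in size in the 4 comparisons. Cobl, an actin nucleator, was at 135, 139 and 141 TPM in untreated WT and 124, 128 and 125 in treated WT, −0.14 ± 0.02 (adjusted p = 0.000811). Dst, a giant linker of cytoskeletal filaments, was at 104, 104 and 116 TPM in untreated WT, 120.4, 129 and 138 in treated WT, 148, 139 and 146 in untreated KO and 155, 163 and 157 in treated KO, higher with the knockout by 0.41 ± 0.05 (adjusted p = 4.96e-05) and with etoposide in WT by 0.25 ± 0.05 (adjusted p = 0.00279). Snd1, a nuclease of the RNA silencing complex, was higher in the knockout by 0.25 ± 0.03 untreated and 0.19 ± 0.03 treated. The ubiquitin ligase gene Rnf220 and Macf1, another cytoskeletal linker, were called in none of the 4 comparisons, with changes between −0.13 and 0.14.

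The longest members differed among themselves. Tenm3 (chr8:48678700-51370255, 2692 kb), a teneurin adhesion protein, was at 23.5, 25.2 and 28.1 TPM in untreated WT, 23.3, 24.5 and 24.4 in treated WT, 30.7, 28.4 and 31.1 in untreated KO and 23.8, 26.8 and 25.9 in treated KO. It was called higher in the untreated knockout, 0.23 ± 0.07 (adjusted p = 0.0127), and lower with etoposide in KO, −0.23 ± 0.07 (adjusted p = 0.0219). The call for the untreated knockout was lost without untreated WT replicate 1, and that for etoposide without untreated KO replicate 1 or 3 or treated KO replicate 1. Dmd (chrX:81858244-84248656, 2390.4 kb), which encodes dystrophin, was at 35.6, 34.3 and 36.4 TPM in untreated WT, 37.5, 35.7 and 36.4 in treated WT, 34.7, 33.5 and 36.7 in untreated KO and 33.3, 35.7 and 37.2 in treated KO, all overlapping, and was called in none of the 4 comparisons. Its changes were 0.04 ± 0.05 with etoposide in WT and −0.02 ± 0.05 with the knockout untreated. Cntnap2, a neurexin family gene (2241 kb), and Macrod2, which encodes an enzyme that removes ADP-ribose (1998 kb), were called lower in the untreated knockout, at −0.39 ± 0.13 (adjusted p = 0.0238) and −0.45 ± 0.12 (adjusted p = 0.00602), the first call being lost without untreated KO replicate 2 or 3 or untreated WT replicate 3. Neither passed the test with etoposide, with changes between −0.06 and 0.14.

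Dmd, Cntnap2 and Macrod2 are among 13 long genes known from common fragile sites. With etoposide 3 of the 13 (23.1%, beside 20.8% of all genes tested) rose in WT, among them Exoc4 and the traffic gene Nbea (0.27 ± 0.08), whose call was lost without treated WT replicate 2 and under quantile normalization. Auts2 alone of the 13 fell (−0.19 ± 0.06, a call lost without untreated WT replicate 1 or 2 or any 1 treated WT library). With etoposide in KO 1 of the 13 rose (7.69%) and 0 fell, beside 14.5% and 10.5% of all genes tested. In the untreated knockout 4 were higher and 5 lower, 30.8% and 38.5% beside 28.1% and 21.5% of all genes tested. In the treated knockout 3 were higher and 3 lower, 23.1% each, beside 22.5% and 21.7%. Wwox (chr8:115166377-116079451, 913 kb), an oxidoreductase and tumour suppressor gene, was at 5.75, 12.0 and 8.99 TPM in untreated WT, 11.3, 12.4 and 12.2 in treated WT, 5.91, 3.09 and 5.89 in untreated KO and 5.47, 6.26 and 3.75 in treated KO. Untreated WT and KO overlapped, and the call of −0.72 ± 0.25 (adjusted p = 0.0284) was lost without untreated KO replicate 2 or untreated WT replicate 2 or 3; treated, the groups did not overlap, −1.10 ± 0.25 (adjusted p = 0.00353). Immp2l, a mitochondrial protease subunit, was called lower untreated, at −0.70 ± 0.14 (adjusted p = 0.00154), and Auts2, a transcription regulator of neural development, at −0.31 ± 0.06 (adjusted p = 0.00138).

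Roles were assigned to 314 of the 450 by name, in 9 lists that do not overlap, and 136 were in none. With etoposide in WT, genes of kinase, phosphatase and GTPase signalling were called higher in 21 of 62 and lower in 2, those of membrane traffic and autophagy in 17 of 45 and 2, and those of the cytoskeleton and centrosome in 16 of 50 and 2. Higher calls were 33.9%, 37.8% and 32.0% of these lists, beside 29.3% of all long genes and 20.8% of all genes tested. Lower calls were 3.23%, 4.44% and 4.0% of them, beside 32 of all 450 long genes and 13.5% of all genes tested. Examples are Trio, a GTPase exchange factor (0.78 ± 0.12), Map3k5, a stress-activated kinase (0.60 ± 0.09), Agap1, an Arf regulator of endosomes (0.64 ± 0.04), and Limch1, an actin-binding protein (0.59 ± 0.06). The medians of these 3 lists were 0.11, 0.15 and 0.13, beside 0.10 over all long genes and 0.02 over all genes tested. The 55 genes of transcription and chromatin had a median of 0.02. With etoposide in KO, 27.4%, 24.4% and 18.0% of the signalling, membrane traffic and cytoskeleton lists were called higher and 3.23%, 0% and 4.0% lower. Of all 450 long genes, 88 were higher and 29 lower there. Adhesion, polarity and guidance had 13 higher and 5 lower of 39 in WT, but 6 and 8 in KO, where 14.5% of all genes tested were higher and 10.5% lower. In the untreated knockout that list had 17 higher (43.6%) and 4 lower (10.3%) with a median of 0.15, among them Adgrl2, a latrophilin (0.37 ± 0.05). Over all genes tested the shares there were 28.1% and 21.5% and the median 0.04. Channels and synapse had 6 higher and none lower of 11. RNA binding and processing had 4 higher and 3 lower of 11, and ubiquitin and proteolysis 1 and 2 of 8. In the treated knockout the adhesion list had 10 higher (25.6%) and 6 lower (15.4%) with a median of 0.04. Over all genes tested these shares were 22.5% and 21.7% and the median 0.02. Channels and synapse had 5 and 0 there, RNA binding and processing 2 and 2, and ubiquitin and proteolysis 1 and 1. The differences between lists were not tested.

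**Figure D5:**
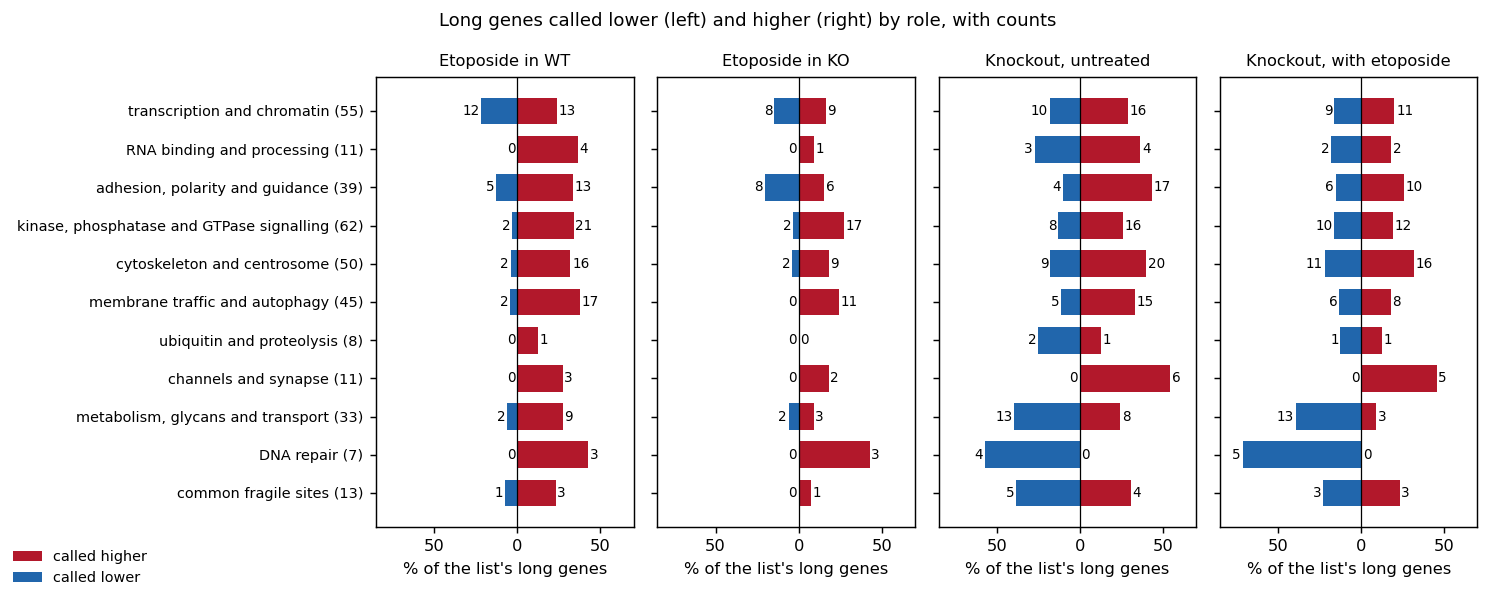
Share of the long genes of each list (horizontal axis, %, with the number of genes at the bars) called lower (blue, left) or higher (red, right), 1 panel per comparison; list sizes stand in parentheses, and DNA repair and fragile sites overlap the other lists. With etoposide in WT red exceeds blue in every list, by 13 to 12 genes in transcription and chromatin; in both knockout panels DNA repair has blue bars only.

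The etoposide change in KO minus that in WT was called for 1 of the 450 and in the lower direction, while 0.0709% of all genes tested were called higher and 1.16% lower. The gene was Ano3, at −0.62 ± 0.11 (adjusted p = 0.0159), so its rise with etoposide was smaller in KO on the log2 scale, though not in TPM. That call was lost without treated KO replicate 1 (−0.59, adjusted p = 0.0557) and under quantile normalization (−0.48, adjusted p = 0.0642), and its adjusted p lay between 0.00710 and 0.0642 over the alternatives. The median difference of the long genes was −0.05, beside −0.02 over all genes tested, but under quantile normalization it was 0.0035, beside 0.0063. No further long gene passed. Unc13b was at −0.23 ± 0.05 (adjusted p = 0.0521) and Plxdc2, which encodes a plexin domain membrane protein, at −0.66 ± 0.14 (adjusted p = 0.0533). Plxdc2 was at 2.14, 2.09 and 2.12 TPM in untreated WT, 5.83, 6.93 and 5.71 in treated WT, 5.48, 5.13 and 4.40 in untreated KO and 8.87, 6.99 and 7.37 in treated KO. Stk3 (chr15:34875645-35155990, 280.3 kb), a kinase of the Hippo pathway, was at 15.5, 15.9 and 15.8 TPM in untreated WT, 14.2, 13.6 and 13.2 in treated WT, 8.60, 8.96 and 9.33 in untreated KO and 9.50, 9.89 and 9.93 in treated KO. With etoposide all WT libraries were lower and all KO libraries higher than the untreated ones, −0.19 ± 0.05 (adjusted p = 0.012, lost without treated WT replicate 3) and 0.11 ± 0.05 (adjusted p = 0.132), but the difference, 0.30 ± 0.07 (adjusted p = 0.0811), did not pass. In both conditions Stk3 was lower in the knockout, −0.75 ± 0.05 and −0.44 ± 0.05.

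The machinery that acts on long transcription units was itself measured through a list of 53 topoisomerase, elongation and pausing genes, all of which were tested. With etoposide in WT 7 rose and 9 fell, and in KO 5 rose and 3 fell; in the knockout 14 rose and 5 fell untreated, and 13 and 6 with etoposide. Shares of the 53 were thus 13.2% and 17.0% with etoposide in WT, beside 20.8% and 13.5% of all genes tested, and 26.4% and 9.43% in the untreated knockout, beside 28.1% and 21.5%. With etoposide in KO they were 9.43% and 5.66%, beside 14.5% and 10.5%. In the treated knockout they were 24.5% and 11.3%, beside 22.5% and 21.7%. Top2a, which encodes the main topoisomerase II of dividing cells, was at 393, 401 and 413 TPM in untreated WT and 391, 400.3 and 403 in treated WT, and Top2b, its sister gene, at 16.9, 15.5 and 16.8 untreated and 18.2, 19.1 and 18.9 treated. Their changes with etoposide were −0.01 ± 0.03 and 0.18 ± 0.06 (adjusted p = 0.721 and 0.0342). Top3b rose from 106, 104 and 106 to 147, 147 and 144 TPM (0.47 ± 0.03, adjusted p = 1.19e-07), and Ell3, an elongation factor, from 10.6, 11.2 and 11.3 to 22.2, 19.8 and 19.2 (0.83 ± 0.06, adjusted p = 9.22e-07). Sfpq, an RNA-binding protein needed for the transcription of long genes in neurons, was at 299.6, 546 and 531 TPM in untreated WT, 293, 459 and 278 in treated WT, 396, 368 and 592 in untreated KO and 534, 431 and 322 in treated KO, with etoposide changes of −0.40 ± 0.27 in WT (adjusted p = 0.289) and −0.07 ± 0.27 in KO (adjusted p = 0.879), neither called. Cdk12, a kinase of RNA polymerase II whose loss is known to shorten transcripts of long genes, was not called either, at −0.27 ± 0.17 with etoposide in WT (adjusted p = 0.264) and 0.37 ± 0.17 in the untreated knockout (adjusted p = 0.0947).

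Long genes often hold other genes inside them. Of the 450, 82 overlapped another gene tested, 18 of them on the same strand, and 47 held a whole one. Whether reads were assigned by strand is not given in the sources used here, so the levels of these 82 are uncertain to that extent. The 368 that overlapped none had 113 higher and 28 lower with etoposide in WT (median 0.09) and 114 higher and 61 lower in the untreated knockout (median 0.08). The 82 had 19 and 4 (median 0.12), and 23 and 17 (median 0.07).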

How the data were processed

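RNA was sequenced from 12 libraries. Per the submitters' processing notes, the tools were HISAT2 2.2.1, StringTie 2.2.1, cutadapt 3.4 and Trim Galore 0.6.6, and the build GRCm39; use of strand in counting is not given in the sources used here. The authors deposited TPM per gene and library, with FPKM and coverage beside it, per the file headers. TPM was the main measure, FPKM an alternative, and the deposited coverage gave the aligned bases; read counts were not used here.

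Gene IDs with 1 row in every table were kept, and genes with a mean of at least 1 TPM were tested. A limma 3.58.1 model (R 4.3.3) on log2(TPM + 1) with the means of the 4 groups, all 12 libraries sharing a variance trend, gave the contrasts, with Benjamini-Hochberg adjustment over 14107 genes and a threshold of 0.05. It was tested on simulated data. Long genes, lists and tests were chosen with earlier results of these data known. Named genes were, per comparison, the 10 highest and 10 lowest long genes that passed with groups not overlapping (5 and 5 for the difference of etoposide changes), the 5 longest, the 5 of highest TPM, all in the DNA repair and fragile-site lists, up to 4 per role list by adjusted p, and the 3 nearest each side of both thresholds. Some genes that this rule names are not reported here. Alternatives were FPKM, another pseudocount, filter, scaling, variance model, length minimum, a replicate block and leaving out each library. Descriptions used Python 3.11.15, numpy 2.4.6, pandas 2.3.3, scipy 1.17.1 and matplotlib 3.10.9. Depth is given in aligned bases, and 3 libraries per group limit the precision.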

Additional observations from a re-analysis of the deposited data

Results flagged for a closer look

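Ano3 differed between genotypes in its etoposide change: KO minus WT was −0.62 on the log2(TPM + 1) scale, and the difference itself passed the test (limma, adjusted p = 0.0159). The call was lost without treated KO replicate 1 (limma, adjusted p = 0.0557) and under quantile normalization (limma, adjusted p = 0.0642). In TPM the rise of Ano3 was not smaller in KO. Stk3 was lower in all 3 treated WT libraries and higher in all 3 treated KO libraries than in the untreated ones, with a difference of 0.30 that did not pass (limma, adjusted p = 0.0811). The change in KO did not pass either (0.11 ± 0.05, adjusted p = 0.132), and the call in WT was lost without treated WT replicate 3, so opposite changes were not shown by the test.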

How the results depend on the processing

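Of 300 calls of 118 named long genes, 242 held under each alternative fit that gave the gene and comparison a value and 58 were lost under at least 1. Many of these genes were named for large changes or low adjusted p in the same libraries. The share kept therefore does not stand for all long genes. Not all 23 alternatives did so: the length minimum changes no fit, FPKM tested 366 of the long genes, and 308 reached a mean of 5 TPM. With FPKM the median change was 0.035 for the untreated knockout and 0.065 for etoposide in WT; with median-of-ratios scaling it was 0.058 and 0.070. Quantile normalization gave medians of 0.051 and 0.066 for the knockout untreated and treated, −0.017 and −0.013 for etoposide in WT and KO, and 0.0035 for the difference of etoposide changes, with 81 higher and 70 lower in WT, 51 lower in KO and 0 for the difference; the members' median minus that of all genes tested stayed at 0.025 in WT and 0.015 in KO. Lower calls for the difference numbered 3 at a mean of at least 5 TPM, 2 with no filter and 3 with a pseudocount of 0.1. The cause of these shifts was not tested. By construction, counts moved with the length minimum. At 150 kb, 748 genes had 227 higher and 136 lower for the knockout untreated, 166 and 139 treated, 210 and 64 with etoposide in WT, 140 and 61 in KO, and 4 lower for the difference. At 300 kb, 208 genes had 68 and 34 (median 0.102), 45 and 38, 56 and 11, 32 and 10, and 0. Leaving out each library gave 117 to 138 higher and 62 to 78 lower for the untreated knockout, 71 to 95 and 71 to 86 for the treated one, 108 to 129 and 22 to 33 for etoposide in WT, 67 to 89 and 17 to 30 in KO, and 1 to 2 lower for the difference (2 without untreated KO replicate 3). Replicate numbers did not pair the libraries: same-numbered libraries correlated at −0.0449 to 0.0453, others at −0.0707 to 0.0491. With a replicate block 135 and 73, 88 and 83, 124 and 30, and 84 and 26 were called in the same order, and 1 lower for the difference, with 7 calls of named genes lost. The tables give no counts, so counting error was not used.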
